A study of Mus musculus with 11 samples.

Results

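Mice in which Cre recombinase was meant to remove both neurofascin 186 (NF186, encoded by Nfasc) and ankyrin G (AnkG, encoded by Ank3) were compared with control mice by bulk sequencing of polyadenylated RNA. The comparison, called DKO against control, takes the 3 libraries labelled DualKO and the 3 labelled as floxed controls out of 11 libraries in the series, and it is described across the 17557 of 22609 listed genes that had at least 10 counts in total. The DKO mice carried the Pcp2-Cre transgene with floxed alleles at both genes (Pcp2-Cre;NfascFx/Fx;AnkGFx/Fx). The control mice carried the same floxed alleles without Cre (NfascFx/Fx;AnkGFx/Fx), although the study's methods allow controls with only 1 floxed gene and Pcp2-Cre is part of the control genotype where its results are described. The 5 other libraries came from mice with Pcp2-Cre and floxed alleles of Nfasc (NFKO, 3 libraries) or of Ank3 (AnkGKO, 2 libraries), and they enter here through the shared fit and as values beside the genes that changed. Mice of both sexes were used, all libraries belong to 1 labelled batch, the age is given both as postnatal day 30 and as day 32, and the strain is given both as C57BL/6J and as a mixed C57BL/6J;129 background. The labelled tissue is cerebellar hemisphere, in which Pcp2-Cre is active mainly in Purkinje cells, so that other cells of the sample are expected to keep both genes.

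AnkG is the scaffold that assembles the axon initial segment, the stretch of axon next to the cell body where action potentials start. It holds voltage-gated sodium and potassium channels, βIV-spectrin and NF186 in place, and NF186, a cell adhesion molecule of the L1 family, links the segment to the extracellular matrix. Purkinje cells are the inhibitory output neurons of the cerebellar cortex, and they fire spontaneously at high rates.

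Reads counted on genes ranged from 38890851 to 48540837 in the control libraries and from 42362218 to 55822361 in the DKO libraries, so that 3 counts, the floor used here, equal 0.0546 to 0.0780 CPM (counts scaled to a common library size) in these libraries. Floors cover counting error only. All levels are given as CPM scaled by edgeR's TMM method, and they compare libraries rather than genes, since they are not divided by gene length. The libraries of each group differed from one another by more than sampling noise. The study's methods count n as mice, so p-values measure the spread between the mice of these libraries.

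The tissue label was checked first, and the defining markers of cerebellum were low or near the floor in 5 of the 6 libraries. Pcp2, a marker of Purkinje cells and the gene whose promoter drives Cre, was at 26.3 CPM in control 1, 1.43 in control 2 and 0.167 in control 3, and at 0.210, 0.374 and 0.255 in the DKO libraries. Gabra6, the GABA receptor subunit of cerebellar granule cells, was at 84.2, 4.41 and 0.0952 CPM in control 1 to 3 and at 1.61, 1.00 and 0.528 in DKO 1 to 3. The granule cell transcription factor Neurod1 was at 53.9 CPM in control 1 and between 1.67 and 5.17 in the 5 other libraries. The summed level of 16 granule cell genes was 1420 CPM in control 1, 544 to 580 in the 2 other controls and 512 to 590 in DKO. That of 25 Purkinje cell genes was 4978 CPM in control 1 and 3438 to 3663 in the others. Aldoc, the highest member of the Purkinje cell list, is also on the astrocyte list, so that sum is not of Purkinje cells alone. Control 1 thus stood apart from the rest by these markers. In bulk tissue, fewer cells of a type and less RNA per cell cannot be told apart.

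Genes that mark the spinal cord and the caudal hindbrain were present in all 6 libraries instead. Hox genes set position along the body axis, and the caudal ones are known from the spinal cord and not from the cerebellum. Hoxb8 was at 187, 221 and 232 CPM in control and at 188, 171 and 194 in DKO. The 20 caudal Hox genes tested summed to 655 to 812 CPM in control and to 688 to 745 in DKO. Chat, the enzyme that makes acetylcholine in motor neurons, was at 46.8, 29.5 and 52.7 CPM in control and at 61.4, 65.7 and 57.6 in DKO. Control 2 differed from the others in the more caudal Hox genes, with Hoxc8 at 7.99 CPM against 105 and 101 in control 1 and 3 and 98.2 to 136 in DKO. Hoxb9 was likewise at 12.6 CPM in control 2, against 64.7 to 82.6 in the 5 other libraries.

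DKO 2 stood apart by RNA of other tissues. Scn10a, a sodium channel of nociceptive sensory neurons, was at 54.0 CPM in DKO 2 and at or below 0.156 in the 5 other libraries, and 12 sensory ganglion genes chosen after this was seen summed to 259 CPM in DKO 2 and to 17.7 to 28.3 in the others. Acta1, skeletal muscle actin, was at 44.8 CPM in DKO 2, at 8.89, 19.1 and 6.67 in control, and at 1.00 and 1.31 in DKO 1 and DKO 3. Xist, which female cells express, was at 464 and 598 CPM in control 1 and 2, at 459 and 469 in DKO 2 and 3, at 28.4 in DKO 1 and at 0.428 in control 3. The part of these differences in the results that follow was not tested beyond the alternatives named beside them.

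**Figure D1:**
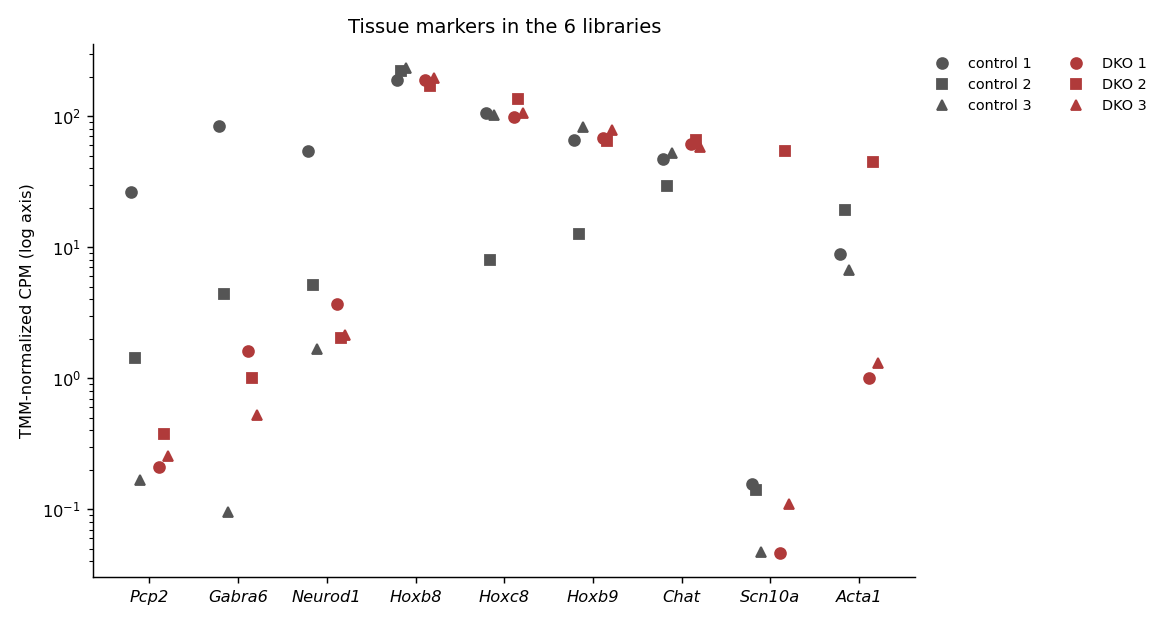
TMM-normalized CPM on a log axis of 9 tissue markers in the 3 control (grey) and 3 DKO (red) libraries, with a symbol shape for each replicate number. Pcp2, Gabra6 and Neurod1 are high only in control 1, Hoxc8 and Hoxb9 are low only in control 2, and Scn10a is high only in DKO 2, at 54.0 CPM.

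Across their 500 most variable genes the 6 libraries did not separate by genotype. The mean distance on the variance-stabilized scale was 16.5 between control libraries, 17.7 between DKO libraries and 17.1 between a control and a DKO library. The pseudo-F of 1.01 was reached or passed by 12 of the 20 divisions into 3 and 3 libraries (p = 0.6, exact permutation test, n = 3 per group), a design in which no p below 0.05 can be reached. The first component held 33.5% of the variance and set DKO 2 apart at 13.6, with the other libraries between -5.29 and 1.57. The second held 29.6% and placed control 1 at 11.2, with the others between -7.35 and 2.79.

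Only 4 genes passed both thresholds of the comparison, which were an adjusted p under 0.05 in edgeR's quasi-likelihood test and a log2 fold change of 0.6 or more in size. They were 0.0228% of the genes tested. Thy1 and Uts2 rose (0.0114%), and Ank3 and Cadps fell (0.0114%). A further gene, Rapgef4, fell with an adjusted p under 0.05 but a smaller change, which makes 5 genes (0.0285%), 3 of them lower (0.0171%), by the adjusted p alone. Without DKO 2, 8 genes passed both thresholds, and without control 1 and DKO 2 together 9, an alternative chosen after seeing the data. At an unadjusted p under 0.05 there were 1365 genes (7.77%), 709 of them higher (4.04%) and 656 lower (3.74%), and in 2536 genes (14.4%) the 3 DKO libraries all lay above (1343, 7.65%) or all below (1193, 6.8%) the 3 controls. DESeq2 with a local dispersion fit, the tool that the study used, called 44 genes (0.251%) at the same thresholds, 30 higher (0.171%) and 14 lower (0.0797%), among them the same 4.

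**Figure D2:**
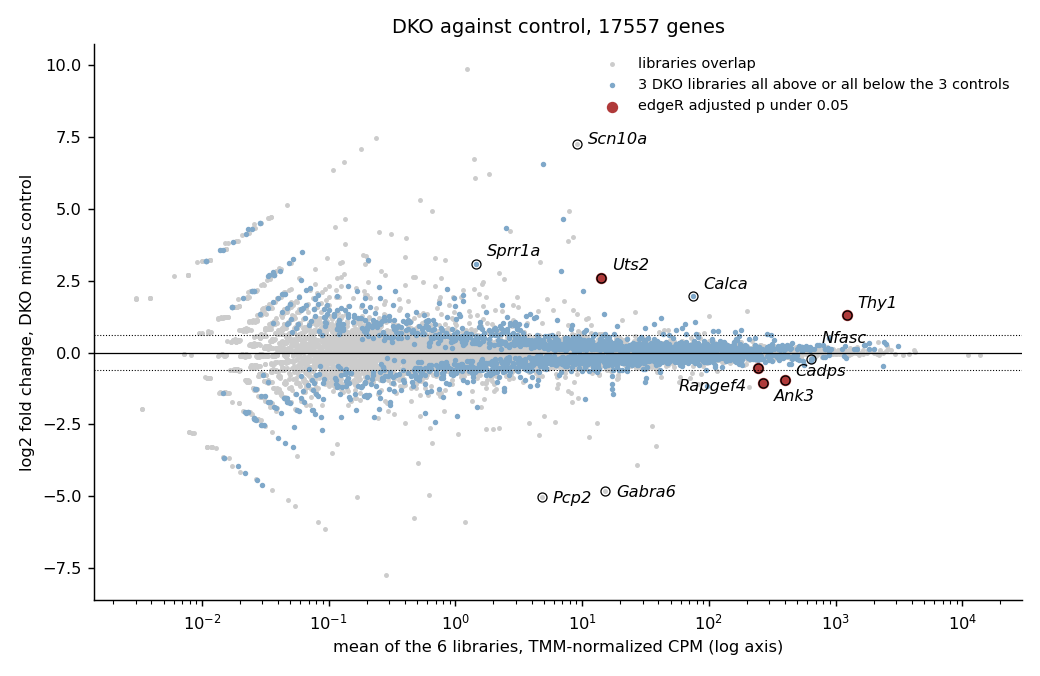
Log2 fold change of DKO minus control for 17557 genes against their mean TMM-normalized CPM over the 6 libraries (log axis), with dotted lines at the thresholds of 0.6 and -0.6. The 5 genes with an edgeR adjusted p under 0.05 (red) have means above 10 CPM, while larger fold changes such as those of Scn10a, at 7.26, and Pcp2, at -5.04, belong to genes high in 1 library, and Sprr1a, at 3.09, lies at low levels.

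The targeted genes were measured in every library. Ank3 (chr10:69234603-69863268 in GRCm39) was at 360, 375 and 353 CPM in control and at 185, 160 and 174 in DKO. All DKO libraries lay below all controls, and the log2 fold change was -1.07 (standard error 0.09, adjusted p = 0.000461 by edgeR's quasi-likelihood test), a decrease of 52.3%. Nfasc (chr1:132492428-132669564 in GRCm39) was at 718, 661 and 690 CPM in control and at 559, 606 and 603 in DKO. The groups did not overlap for Nfasc either, but its log2 fold change of -0.23 (standard error 0.09, edgeR adjusted p = 0.619), 14.6% lower, did not pass the test. Both are gene totals over all cells of the sample, in which Pcp2 was low outside control 1. Which cells held less Ank3 was not tested. The totals also do not separate the NF186 isoform from the glial NF155, which comes from the same gene, or reads from inside and outside the floxed parts.

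Beside the single knockouts, Ank3 was at 156 and 200 CPM in AnkGKO and at 385 to 407 in NFKO. The log2 fold change of Ank3 was -1.18 in DKO against NFKO (edgeR adjusted p = 6.15e-05), and -1.03 in AnkGKO against control (edgeR adjusted p = 0.00108). As background for the single knockouts, both thresholds were passed by 0.365% of genes in NFKO against control, 0.165% in AnkGKO against control, 0.615% in DKO against NFKO and 0.171% in DKO against AnkGKO, and the adjusted p alone by 0.461%, 0.205%, 0.889% and 0.199%. Nfasc was at 622 to 701 CPM in NFKO, within or just below the range of the controls, and at 717 and 953 in AnkGKO.

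Thy1, which encodes a GPI-anchored glycoprotein abundant on the surface of neurons, was the gene with the smallest p. It was at 703, 689 and 730 CPM in control and at 1685, 1783 and 1743 in DKO, a 2.46-fold rise (log2 fold change 1.30, standard error 0.09, edgeR adjusted p = 0.000166). The groups lay far apart relative to their spread, with means of 707 ± 20.5 (SD, n = 3) and 1737 ± 49.1 (SD, n = 3). Thy1 lies on chromosome 9 (chr9:43954332-43959880 in GRCm39), away from both floxed genes. Thy1 was equally high in the single knockouts, at levels that overlapped with DKO. It was at 1371 to 1787 CPM in NFKO and at 1749 and 1901 in AnkGKO, with log2 fold changes against the same controls of 1.202 (edgeR adjusted p = 7.47e-05) and 1.37 (edgeR adjusted p = 0.000114). DKO against NFKO gave 0.09 (standard error 0.09, edgeR adjusted p = 0.642). Of 20 GPI-anchored neuronal surface genes, 10 were higher and 10 lower in DKO, with a median log2 fold change of -0.01, and Thy1 alone passed the test.

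Cadps, which encodes CAPS1, a priming factor for the exocytosis of dense core vesicles, was at 529, 494 and 542 CPM in control and at 292, 232 and 286 in DKO. The decrease was 48.2% (log2 fold change -0.95, standard error 0.09, edgeR adjusted p = 0.00129), with no overlap of the groups. Like Thy1, Cadps changed in the single knockouts to a similar level, 234 to 262 CPM in NFKO and 244 and 270 in AnkGKO. The log2 fold changes against control were -1.09 in NFKO (edgeR adjusted p = 0.000131) and -1.02 in AnkGKO (edgeR adjusted p = 0.00108), and DKO against NFKO gave 0.14 (standard error 0.09, edgeR adjusted p = 0.472). These contrasts share the control libraries. Over the 8 libraries labelled with Pcp2-Cre the lowest level of Thy1 was 1371 CPM and the highest of Cadps 292, whereas over the controls the highest level of Thy1 was 730 CPM and the lowest of Cadps 494.

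Uts2, which encodes the vasoactive peptide urotensin II, expressed in spinal motor neurons, had the largest fold change of the called genes. It was at 5.67, 2.36 and 3.98 CPM in control and at 22.8, 27.0 and 22.8 in DKO, a 6.08-fold rise (log2 fold change 2.60, standard error 0.27, edgeR adjusted p = 0.00818). Uts2 separated DKO from both single knockouts as well. NFKO libraries were at 6.53 to 9.49 CPM and AnkGKO libraries at 6.23 and 6.41, which gave a log2 fold change of 1.52 in DKO against NFKO (edgeR adjusted p = 0.0264) and 1.94 in DKO against AnkGKO (edgeR adjusted p = 0.0393). The call against control was lost when only the 6 libraries were fitted (edgeR adjusted p = 0.174) and without control 3 (edgeR adjusted p = 0.0916), at a log2 fold change of 2.60 in both. Against NFKO the call was lost without control 3, DKO 1 or DKO 3 (edgeR adjusted p = 0.0549 to 0.0732), and against AnkGKO without control 3 or any 1 DKO library (edgeR adjusted p = 0.0852 to 0.135). Both were lost with Xist as a covariate (edgeR adjusted p = 0.249 and 0.405), and the difference from AnkGKO also with the replicate block (0.0708), the granule cell covariate (0.0744) and the sensory ganglion covariate (0.0852).

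Rapgef4, which encodes EPAC2, a cAMP-responsive exchange factor that acts in vesicle release, was at 273, 301 and 289 CPM in control and at 209, 190 and 202 in DKO. It fell by 30.4% (log2 fold change -0.52, standard error 0.06, edgeR adjusted p = 0.0131), less than the fold threshold. Rapgef4 was at 189 and 204 CPM in AnkGKO and at 263 to 285 in NFKO, so that it lay near the DKO level in the one and near the control level in the other. The adjusted p of Rapgef4 was above 0.05 without control 2 (edgeR adjusted p = 0.104), control 3 (edgeR adjusted p = 0.0916) or DKO 3 (edgeR adjusted p = 0.113), without control 1 and DKO 2 together (0.0533), with the replicate block (0.0651), and with the 6 libraries alone (0.121, or 0.455 with the block).

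**Figure D3:**
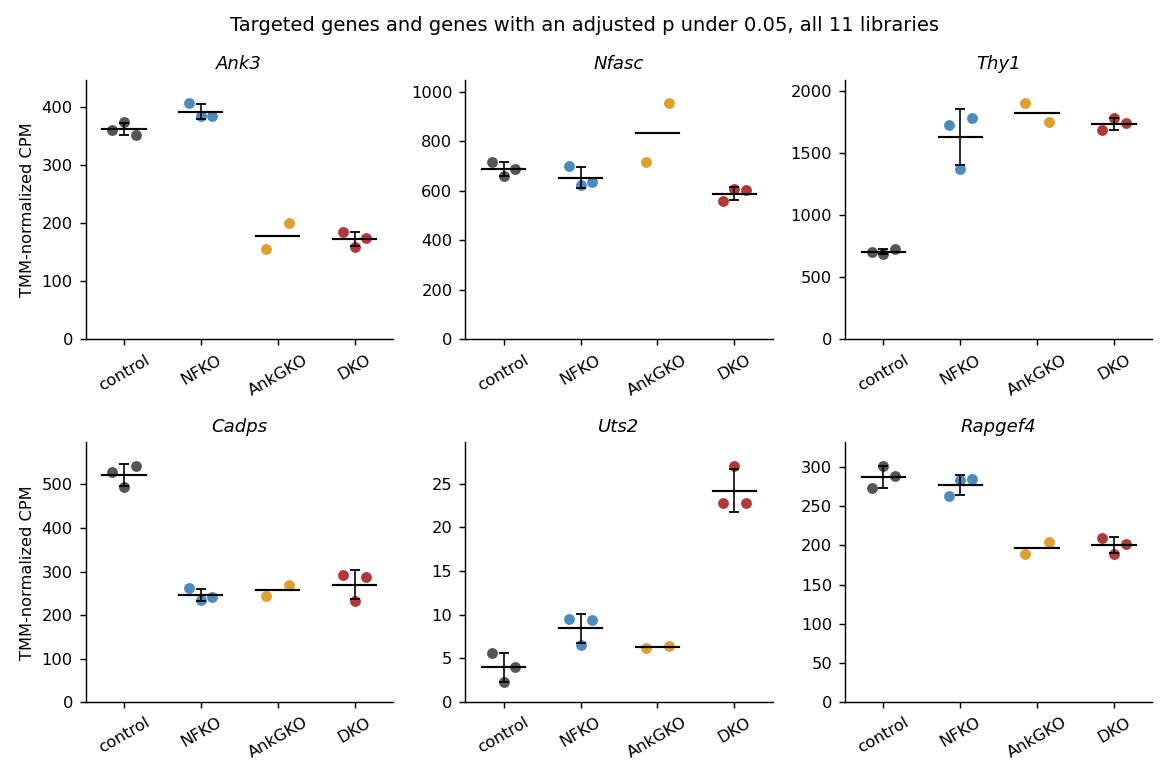
TMM-normalized CPM of the 2 targeted genes and the genes with an adjusted p under 0.05 in all 11 libraries (points), with the mean of each genotype (bar) and its SD where it has 3 libraries. Thy1 and Cadps sit at a similar level in NFKO, AnkGKO and DKO, Ank3 and Rapgef4 are low in AnkGKO and DKO, and Uts2 is above 22 CPM in DKO and below 10 elsewhere.

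Among the other genes of the axon initial segment none passed the test. Of 22 scaffold and node genes tested, 11 were higher and 11 lower, with a median log2 fold change of 0.02, 1 lay higher and 5 lower without overlap, against 7.65% and 6.8% of all genes, and Ank3 was the only one called. Spnb4, which encodes βIV-spectrin, was at 227, 213 and 193 CPM in control and at 185, 182 and 195 in DKO, with overlap. The adhesion partner Nrcam ranged from 279 to 292 CPM in control and from 239 to 295 in DKO. Ndel1, a dynein regulator placed at the segment, was higher in all DKO libraries, at 139, 119 and 127 CPM against 107, 96.7 and 115, without passing the test (log2 fold change 0.27, edgeR adjusted p = 0.562).

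No gene of the sodium and potassium channel lists was called. Scn8a, the sodium channel of mature initial segments and nodes, was at 616, 525 and 619 CPM in control and at 661, 515 and 635 in DKO. Of 11 sodium channel genes none was called, and Scn9a, Scn10a and Scn11a were far higher in DKO 2 than in any other library, where Scn9a was at 25.5 CPM against 2.47 to 4.59 elsewhere. Of 27 potassium channel genes 16 were lower and 11 higher, none called, and 5 lay lower without overlap, against 6.8% of all genes. Their median was -0.06, and 0.05 without DKO 2. Among these Kcnd2, an A-type channel of dendrites, was at 92.3, 88.5 and 89.7 CPM in control and at 77.8, 66.3 and 81.2 in DKO (log2 fold change -0.26, edgeR adjusted p = 0.619). Kcnk2, a leak potassium channel that the study names, was at 16.6, 23.3 and 27.2 CPM in control and at 25.6, 18.8 and 25.6 in DKO, with overlap.

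The 3 conventional kinesin heavy chains, which carry vesicles and organelles along axons, lay lower in DKO without overlap, and none passed the test with edgeR. Kif5a was at 2626, 2761 and 2866 CPM in control and at 1994, 2021 and 1981 in DKO, and Kif5b at 612, 606 and 725 in control and at 502, 468 and 478 in DKO. The log2 fold changes were -0.46 (standard error 0.08, edgeR adjusted p = 0.157) for Kif5a and -0.42 (standard error 0.09, edgeR adjusted p = 0.405) for Kif5b, and with DESeq2 their adjusted p-values were 1.84e-06 and 0.000878 at changes below the fold threshold. Kif5c was closer to control, at 1314, 1164 and 1371 CPM in control and at 1155, 1035 and 1163 in DKO (log2 fold change -0.20, edgeR adjusted p = 0.646). Kif5a was at 1710 and 2040 CPM in AnkGKO and at 2601 to 2879 in NFKO. Over all 23 kinesin, dynein and dynactin genes the median was 0.03, with 15 higher and 8 lower. Of the 23, 3 (13%) lay lower and 2 (8.7%) higher without overlap, against 6.8% and 7.65% of all genes.

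Genes of the postsynaptic side were mostly lower by small amounts. Of 35 postsynaptic density and glutamate receptor genes, 30 were lower, 7 of them at an unadjusted p under 0.05, and 13 had all DKO libraries below all controls, against 6.8% of all genes, but none was called. The median log2 fold change was -0.12. Shank3, a scaffold of the postsynaptic density, was at 108, 88.6 and 92.7 CPM in control and at 67.2, 75.2 and 69.9 in DKO (log2 fold change -0.45, standard error 0.09, edgeR adjusted p = 0.405). Gria1, an AMPA receptor subunit, was at 185, 183 and 168 CPM in control and at 149, 134 and 152 in DKO (log2 fold change -0.30, standard error 0.10, edgeR adjusted p = 0.588). Dlg4, which encodes PSD-95, showed no overlap but a change of only -0.05, from 305 to 313 CPM in control to 288 to 305 in DKO. Without DKO 2 the median of the list was -0.04 and 13 of 35 genes were higher, and DKO 2 had the lowest summed level of the list, 3711 CPM against 4164 and 4171 in the other DKO libraries and 4259 to 4495 in control.

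On the presynaptic side 21 of 27 synaptic vesicle and SNARE genes were lower, with a median log2 fold change of -0.09 and none called, and without DKO 2 the median was -0.03 with 12 of 27 higher. Rims1, an active zone organizer, was at 71.5, 62.8 and 65.7 CPM in control and at 51.9, 44.8 and 57.4 in DKO (log2 fold change -0.37, edgeR adjusted p = 0.562). Snap25, a SNARE protein of vesicle fusion, overlapped between the groups, at 3285 to 3663 CPM in control and 2951 to 3477 in DKO, as did the vesicle protein Syp, at 1086 to 1135 and 1118 to 1202. Among 16 dense core vesicle genes, beside Cadps and Rapgef4, the vesicle protein Ptprn was higher in every DKO library, at 421, 399 and 406 CPM against 343, 337 and 348 (log2 fold change 0.25, edgeR adjusted p = 0.427). Syt4 was higher without overlap as well, at 218, 209 and 210 CPM against 190, 172 and 182 (log2 fold change 0.23, edgeR adjusted p = 0.588).

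Genes of cholinergic motor neurons were mostly higher in DKO. Of 19 tested, 18 were higher in DKO, with a median log2 fold change of 0.52, and in 11 the groups did not overlap, against 7.65% of all genes. Uts2 was the only one called. Calca, which encodes the neuropeptide CGRP, was at 38.6, 18.4 and 35.7 CPM in control and at 90.1, 165 and 102 in DKO (log2 fold change 1.95, standard error 0.47, edgeR adjusted p = 0.532, DESeq2 adjusted p = 0.00775). Its relative Calcb was at 9.25, 5.07 and 10.8 CPM in control and at 19.0, 25.1 and 19.5 in DKO, and reads that match both genes alike would not have been counted. Ret, the receptor of the GDNF family, was at 199, 161 and 211 CPM in control and at 250, 298 and 261 in DKO (log2 fold change 0.50, edgeR adjusted p = 0.562). Slc5a7, the choline transporter, was at 145, 96.1 and 158 CPM in control and at 230, 227 and 225 in DKO (log2 fold change 0.78, edgeR adjusted p = 0.639).

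The motor neuron genes are set here beside the library differences given above, whose part in the rise was not tested. Control 2, the library low in Hoxc8 and Hoxb9, was the lowest of the 3 controls for Chat, Slc5a7, Calca, Calcb, Ret and Uts2. DKO 2, which held sensory ganglion RNA, was the highest for Calca, Calcb, Ret and Uts2. Without control 2 the median was 0.39, with 16 of 19 genes higher and 11 without overlap, against 11.3% of all genes. With the mean of Hoxa9, Hoxb9, Hoxc8 and Hoxc9 as a covariate, chosen after seeing the data, it was 0.21, whereas without control 1 and DKO 2 it was 0.52. Uts2 kept its call in all 3 settings. Isl1, a transcription factor of both motor and sensory neurons, was at 7.03 CPM in DKO 2 and at 3.01 and 2.58 in DKO 1 and 3, against 1.69 to 2.44 in control.

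Of 18 genes that neurons induce after axonal injury, 15 were higher in DKO and none was called by edgeR in the main fit. In 7 the groups did not overlap, against 7.65% of all genes, but the median was 0.13 and, without control 1 and DKO 2, 0.05 with 10 higher. Ecel1, a peptidase-like protein induced in injured neurons, was the gene closest to the threshold, at 45.1, 49.2 and 58.7 CPM in control and at 80.8, 85.3 and 75.9 in DKO (log2 fold change 0.66, standard error 0.10, edgeR adjusted p = 0.0561, DESeq2 adjusted p = 1.13e-08). With edgeR, Ecel1 was called with the DESeq2 size factors, with no filter beyond 1 count, with the Xist covariate and without control 3, and in no other alternative. Sprr1a, a protein of regenerating axons, was at 0.286, 0.0403 and 0.595 CPM in control and at 2.29, 3.01 and 2.46 in DKO (log2 fold change 3.09, standard error 0.68, edgeR adjusted p = 0.455, DESeq2 adjusted p = 0.0187). Control 2 was below the floor for Sprr1a. Atf3, a transcription factor of the injury response, was at 1.53, 1.23 and 1.64 CPM in control and at 2.71, 2.78 and 2.26 in DKO (log2 fold change 0.81, edgeR adjusted p = 0.467, DESeq2 adjusted p = 0.0329). In AnkGKO the levels were 70.0 and 75.9 CPM for Ecel1, 7.20 and 2.39 for Sprr1a and 3.49 and 4.78 for Atf3, and in NFKO they were 41.8 to 49.1, 0.111 to 0.268 and 1.65 to 2.10. Gap43 and Sox11, which also belong to the list, did not separate the groups, with Gap43 at 112 to 130 CPM in control and 116 to 124 in DKO.

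Among 26 neuropeptide and receptor genes Uts2 was the only one called by edgeR, and 17 were higher and 9 lower. Vip was at 1.40, 1.61 and 1.64 CPM in control and at 2.17, 4.34 and 3.02 in DKO (log2 fold change 1.03, edgeR adjusted p = 0.467, DESeq2 adjusted p = 0.0199). Ucn, which encodes urocortin, was at 0.650, 0.101 and 0.167 CPM in control and at 0.700, 2.15 and 1.35 in DKO, where DKO 1 hardly differed from control 1. Uts2d, the paralog of Uts2 now called Uts2b, was at 4.81, 2.52 and 4.59 CPM in control and at 7.05, 10.3 and 8.77 in DKO. Penk, which encodes the enkephalins, overlapped, at 122 to 159 CPM in control and 130 to 158 in DKO. The median of the list was 0.12, and without control 1 and DKO 2 the median was -0.01.

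AP-1 and CREB are transcription factors known from injured and active neurons, and the 250 bases before their start sites are shown for the 7 peptide and injury genes named above that DESeq2 called higher, on the strand of the gene, from RefSeq promoters of GRCm38.p6. Capitals mark the AP-1 motif TGACTCA, the CRE motif TGACGTCA and its shorter form TGACG, which lies within the CRE, each searched on both strands. Of the called genes, Thy1 and Ank3 have no entry.
Uts2, chr4:150996847-150997096, plus strand: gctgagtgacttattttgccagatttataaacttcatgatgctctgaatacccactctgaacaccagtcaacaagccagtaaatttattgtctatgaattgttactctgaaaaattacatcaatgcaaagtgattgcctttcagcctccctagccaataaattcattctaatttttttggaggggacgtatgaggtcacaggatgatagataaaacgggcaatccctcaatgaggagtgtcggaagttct
Ecel1, chr1:87156357-87156606, minus strand: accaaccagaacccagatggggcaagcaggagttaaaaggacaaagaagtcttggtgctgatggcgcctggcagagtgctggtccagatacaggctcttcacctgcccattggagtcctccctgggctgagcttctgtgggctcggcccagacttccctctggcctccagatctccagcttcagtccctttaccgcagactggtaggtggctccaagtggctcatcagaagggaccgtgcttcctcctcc
Sprr1a, chr3:92485882-92486131, minus strand: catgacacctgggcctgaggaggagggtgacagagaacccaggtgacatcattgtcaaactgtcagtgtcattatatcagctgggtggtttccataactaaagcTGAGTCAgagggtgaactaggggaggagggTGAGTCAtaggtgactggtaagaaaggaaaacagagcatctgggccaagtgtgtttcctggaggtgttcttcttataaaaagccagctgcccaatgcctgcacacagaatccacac
Atf3, chr1:191183334-191183583, minus strand: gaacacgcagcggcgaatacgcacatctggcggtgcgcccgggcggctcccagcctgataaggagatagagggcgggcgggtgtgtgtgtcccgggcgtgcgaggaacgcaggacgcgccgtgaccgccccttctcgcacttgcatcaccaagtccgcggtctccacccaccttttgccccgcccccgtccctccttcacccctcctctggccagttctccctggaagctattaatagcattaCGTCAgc
Calca, chr7:114636358-114636607, minus strand: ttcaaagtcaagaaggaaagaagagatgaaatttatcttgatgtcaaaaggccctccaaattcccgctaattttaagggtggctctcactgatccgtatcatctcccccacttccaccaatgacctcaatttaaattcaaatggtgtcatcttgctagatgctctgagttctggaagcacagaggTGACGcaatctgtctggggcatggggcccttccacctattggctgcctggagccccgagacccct
Vip, chr10:5638968-5639217, plus strand: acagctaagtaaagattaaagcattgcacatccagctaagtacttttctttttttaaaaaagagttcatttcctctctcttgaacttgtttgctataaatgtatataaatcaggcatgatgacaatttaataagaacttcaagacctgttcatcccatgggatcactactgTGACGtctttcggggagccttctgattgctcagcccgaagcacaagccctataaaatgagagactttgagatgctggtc
Ucn, chr5:31138896-31139145, minus strand: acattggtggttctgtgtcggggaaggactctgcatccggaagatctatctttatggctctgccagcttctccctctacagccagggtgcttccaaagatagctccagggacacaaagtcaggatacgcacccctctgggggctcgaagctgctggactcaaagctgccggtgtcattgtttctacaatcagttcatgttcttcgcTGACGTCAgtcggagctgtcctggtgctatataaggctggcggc
The AP-1 motif was found only before Sprr1a, where it occurs in 2 copies, 146 and 116 bases before the start, and it is held by 4.46% of all 32851 promoters in windows of the same length. The full CRE was found only before Ucn, 44 bases before the start, and is held by 1.55%. The shorter form stood before Atf3, Calca, Vip and Ucn and is held by 17.8%. The windows of Uts2 and Ecel1 hold none of these letters. A match is a description of the sequence and not of binding.

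Microglial genes tended to be higher in DKO, in small steps and without a call by edgeR. Of 29 genes of activated microglia 27 were higher, with a median log2 fold change of 0.27, 15 at an unadjusted p under 0.05 and 12 without overlap, against 4.04% and 7.65% of all genes. Of 26 microglial genes 23 were higher (median 0.24), 9 at an unadjusted p under 0.05, and 3 lay higher without overlap. Csf1, a growth factor of microglia, was at 65.3, 65.9 and 70.4 CPM in control and at 80.9, 85.8 and 76.3 in DKO (log2 fold change 0.27, edgeR adjusted p = 0.427). Cd33, a microglial surface lectin, was at 3.61, 4.55 and 4.05 CPM in control and at 6.04, 5.32 and 6.84 in DKO (log2 fold change 0.58, edgeR adjusted p = 0.467). Clec7a, a receptor of activated microglia, was at 1.51, 2.56 and 1.48 CPM in control and at 2.89, 3.36 and 3.46 in DKO (log2 fold change 0.80, edgeR adjusted p = 0.576). Aif1, which encodes the marker IBA1, overlapped, at 2.81, 4.51 and 3.05 CPM in control and 2.15, 4.02 and 4.99 in DKO. Without control 1 and DKO 2 the medians were 0.20, with 22 of 29 higher, and 0.14, with 18 of 26 higher.

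Among complement genes C3, the central component of the cascade, was at 43.3, 45.2 and 33.8 CPM in control and at 72.9, 84.4 and 53.2 in DKO (log2 fold change 0.78, standard error 0.19, edgeR adjusted p = 0.528, DESeq2 adjusted p = 0.0329). Its receptor C3ar1 was at 2.34, 3.50 and 1.98 CPM in control and at 4.55, 4.23 and 3.75 in DKO. Clu, a secreted chaperone that restrains complement and carries lipids, was at 751, 742 and 707 CPM in control and at 843, 924 and 847 in DKO (log2 fold change 0.25, standard error 0.06, edgeR adjusted p = 0.467, DESeq2 adjusted p = 0.000878). The initiating subunits C1qa, C1qb and C1qc overlapped, with log2 fold changes of 0.22, 0.24 and 0.25. Of 23 complement genes 19 were higher with a median of 0.25, but without control 1 and DKO 2 the median was -0.01. With the caudal Hox covariate, C4b of this list was called higher by edgeR. Both settings were chosen after seeing the data.

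Reactive astrocyte genes showed a similar pattern, and general astrocyte genes a weaker and mixed one. Of 20 general astrocyte genes 13 were higher and 7 lower, with a median of 0.10. Without overlap, 4 of them lay higher and 2 lower, against 7.65% and 6.8% of all genes. Stat3, the transcription factor that drives reactive astrogliosis, was at 115, 114 and 113 CPM in control and at 149, 159 and 136 in DKO (log2 fold change 0.37, standard error 0.08, edgeR adjusted p = 0.423, DESeq2 adjusted p = 0.000878). The filament protein Gfap overlapped, at 1922, 2151 and 1587 CPM in control and at 2238, 3048 and 1982 in DKO, with DKO 2 highest. Of 27 reactive astrocyte genes 21 were higher (median 0.29) and 7 did not overlap, against 7.65% of all genes. Without DKO 2, 16 of 27 were higher, with a median of 0.21.

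Of the genes for lipid carriers and matrix proteins that glia make, Apoe, Apoc1 and Sparc lay higher without overlap and none was called by edgeR. Apoe, the main lipid carrier of the brain, was at 1491, 1582 and 1437 CPM in control and at 1879, 1870 and 1721 in DKO (log2 fold change 0.28, standard error 0.08, edgeR adjusted p = 0.568). Apoc1, its neighbour in the genome, was at 2.52, 2.698 and 2.21 CPM in control and at 4.18, 4.04 and 6.13 in DKO (log2 fold change 0.95, edgeR adjusted p = 0.513, DESeq2 adjusted p = 0.0232). Sparc, a matricellular protein, was at 1516, 1628 and 1719 CPM in control and at 2253, 1859 and 2046 in DKO (log2 fold change 0.34, standard error 0.08, edgeR adjusted p = 0.480). By contrast Nos2, the inducible nitric oxide synthase, and Cxcr4, a chemokine receptor, both genes that the study names, overlapped. Nos2 was at 1.196, 0.624 and 0.809 CPM in control and at 0.747, 0.630 and 0.910 in DKO, and Cxcr4 at 4.81, 4.95 and 3.74 in control and at 4.11, 5.37 and 4.09 in DKO. Of 25 lipid handling genes 15 were higher, with a median of 0.03, and 7 (28%) lay higher without overlap, against 7.65% of all genes. Of 19 matricellular and perineuronal matrix genes 11 were lower, with a median of -0.06, and 2 (10.5%) lay higher without overlap.

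Oligodendrocyte precursor genes lay lower and myelin genes were level. Of 15 precursor and early oligodendrocyte genes 13 were lower, with a median of -0.19 and none called. Bcas1, a marker of newly forming oligodendrocytes, was at 629, 730 and 765 CPM in control and at 570, 529 and 620 in DKO (log2 fold change -0.31, edgeR adjusted p = 0.562). Olig2, the lineage transcription factor, was at 81.7, 81.0 and 81.5 CPM in control and at 53.6, 68.6 and 74.9 in DKO (log2 fold change -0.31, edgeR adjusted p = 0.588). The median of 20 myelin genes was 0.00, and Mbp, which encodes myelin basic protein, was at 13744 to 15043 CPM in control and 12759 to 14062 in DKO.

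**Figure D4:**
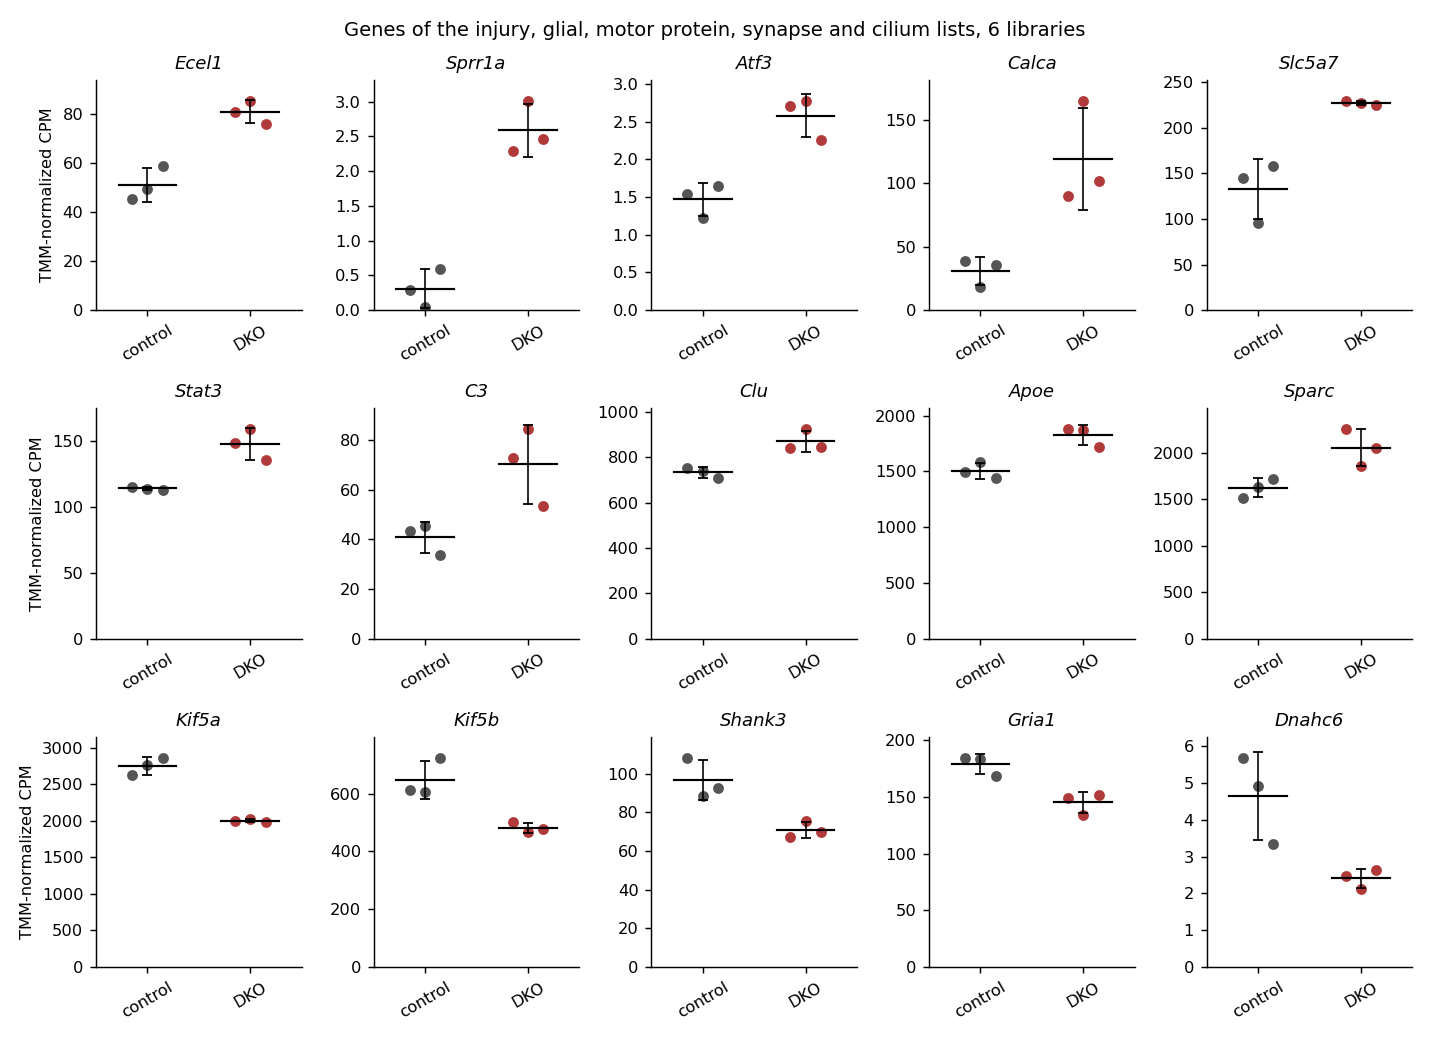
TMM-normalized CPM of 15 genes in the 3 control (grey) and 3 DKO (red) libraries, with the mean (bar) and SD of each group. The 15 drawn are all genes without overlap between the groups, as are 14.4% of all genes, so the figure does not show how often this occurs. Members of the same lists that overlap, such as Gfap and Foxj1, are not drawn. None of the 15 passed the edgeR thresholds in the main fit.

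Genes of motile cilia, which ependymal cells carry at the ventricles and the central canal, mostly lay lower in DKO, and none was called by edgeR. Of 27 tested, 23 were lower, 11 of them at an unadjusted p under 0.05 against 3.74% of all genes, and 12 lay lower without overlap against 6.8%. The median log2 fold change was -0.35. Dnahc6, an axonemal dynein heavy chain, was at 5.69, 4.91 and 3.33 CPM in control and at 2.47, 2.12 and 2.64 in DKO (log2 fold change -0.94, standard error 0.22, edgeR adjusted p = 0.438, DESeq2 adjusted p = 0.0133). Dnahc5 was at 3.87, 4.73 and 4.86 CPM in control and at 2.87, 2.80 and 3.11 in DKO (edgeR adjusted p = 0.427), and Dnahc11 at 4.81, 3.50 and 2.07 in control and at 1.21, 1.17 and 1.69 in DKO (edgeR adjusted p = 0.528). Foxj1, the transcription factor that specifies these cells, overlapped, at 47.1, 41.0 and 49.4 CPM in control and 43.6, 43.9 and 50.8 in DKO. The median was -0.46 without control 1 and DKO 2 and -0.24 with the caudal Hox covariate.

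**Figure D5:**
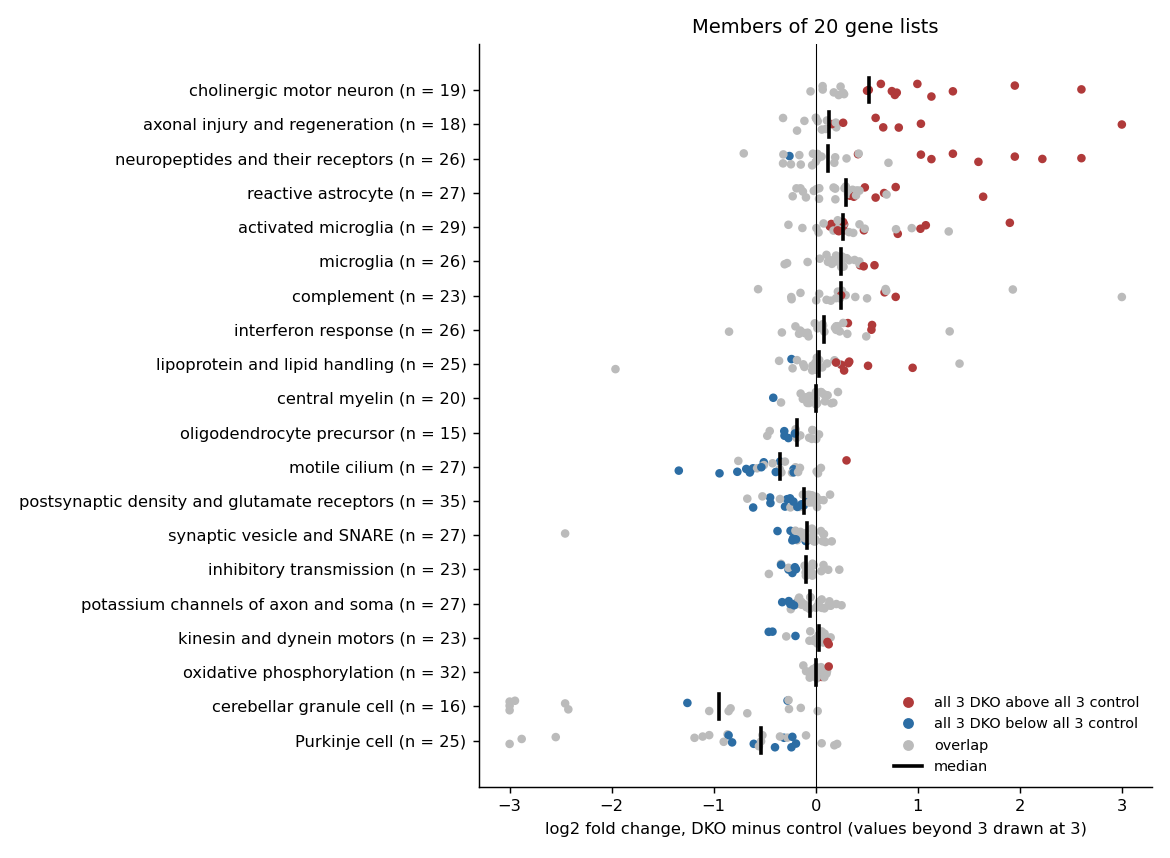
Log2 fold change of DKO minus control for the members of 20 gene lists (points, red or blue where the 3 DKO libraries all lie above or below the 3 controls, grey otherwise) with the list median (black bar). Values beyond 3 or -3 are drawn at that limit. The cholinergic motor neuron list has a median of 0.52 and the motile cilium list of -0.35, and the cerebellar granule cell and Purkinje cell lists are spread to the left.

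Purkinje and granule cell genes lay lower in DKO, with medians of -0.54 and -0.95 that rested on control 1. Without it the medians were -0.15 and -0.13. Of the 25 Purkinje cell genes 8 lay lower without overlap, against 6.8% of all genes, and 8 also without control 1, against 11.8%, and none was called by edgeR. Car8, a Purkinje cell gene, was at 157, 18.2 and 8.55 CPM in control and at 14.8, 8.92 and 7.64 in DKO (log2 fold change -2.55, standard error 1.46, edgeR adjusted p = 0.679). Calb1, the Purkinje cell calcium-binding protein that other neurons also express, was at 112, 71.2 and 45.5 CPM in control and at 46.99, 36.01 and 42.4 in DKO. Adarb2, an RNA editing enzyme relative of some interneurons, overlapped, at 11.7, 14.6 and 14.4 CPM in control and 14.96, 9.18 and 12.3 in DKO. Cacna1g, a T-type calcium channel, was at 157, 128 and 106 CPM in control and at 95.2, 86.6 and 94.0 in DKO (log2 fold change -0.50, edgeR adjusted p = 0.562).

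Housekeeping groups held no call. The 32 oxidative phosphorylation genes had a median log2 fold change of 0.00 and a range from -0.12 to 0.13, and 37 cytosolic ribosomal protein genes a median of 0.08. Of the latter 27 were higher, 9 of them without overlap, against 7.65% of all genes, and without control 1 and DKO 2 the median was -0.01. Interferon response genes had a median of 0.08 over 26 genes. In the integrated stress response list, Phgdh, the first enzyme of serine synthesis, was at 8.50, 12.4 and 8.57 CPM in control and at 16.1, 14.8 and 15.5 in DKO (log2 fold change 0.65, edgeR adjusted p = 0.427, DESeq2 adjusted p = 0.00752). Ddit4, a stress-induced inhibitor of mTOR, was at 46.8, 49.7 and 55.6 CPM in control and spread widely in DKO, at 167, 89.3 and 59.0 (log2 fold change 1.05, edgeR adjusted p = 0.588).

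The neighbours of the floxed genes were described separately. Within 10 Mb of Nfasc 127 genes were tested, 64 higher and 63 lower, and within 10 Mb of Ank3 160 genes, 85 higher and 75 lower, with medians of 0.00 and 0.01 and none called. Near Ank3, 22 genes lay higher without overlap and 14 were higher at an unadjusted p under 0.05, against 7.65% and 4.04% of all genes. Pbld2 (chr10:62858885-62894598 in GRCm39) was at 0.676, 0.483 and 0.643 CPM in control and at 1.70, 1.66 and 1.22 in DKO (log2 fold change 1.35, edgeR adjusted p = 0.401, DESeq2 adjusted p = 0.00352), and it has a close paralog, Pbld1, that could share reads. Icosl, a costimulatory ligand, was at 8.71, 8.03 and 7.21 CPM in control and at 17.0, 9.76 and 13.98 in DKO (log2 fold change 0.77, edgeR adjusted p = 0.513). Near Nfasc, the cathepsin gene Ctse (chr1:131566009-131603243 in GRCm39) was at 1.56, 2.66 and 1.67 CPM in control and at 4.34, 3.50 and 3.66 in DKO (log2 fold change 0.96, edgeR adjusted p = 0.427, DESeq2 adjusted p = 0.00798).

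Among the remaining genes with the smallest p, Slc15a3, a lysosomal peptide transporter of immune cells, was at 1.56, 1.67 and 1.45 CPM in control and at 2.82, 2.71 and 3.29 in DKO (log2 fold change 0.91, edgeR adjusted p = 0.405). Colec10, a collectin, was at or under the floor in all 3 controls, at 0.0260 to 0.0476 CPM, and at 0.420, 0.304 and 0.400 in DKO. Mmrn2, an endothelial matrix protein, was at 12.3, 11.8 and 13.02 CPM in control and at 8.42, 8.73 and 8.94 in DKO (log2 fold change -0.51, edgeR adjusted p = 0.401). Of 22 endothelium and pericyte genes 16 were lower, with a median of -0.16, and with the caudal Hox covariate the median was -0.03.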

How the data were processed

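Polyadenylated RNA of 11 libraries was sequenced, and the authors deposited a table of raw counts per gene and a table of normalized signal. Per the labels and the study's methods, reads were trimmed (Trimmomatic 0.39) and aligned to GRCm39 (STAR 2.7.11a). The labels give single-end reads and the methods paired-end reads. The deposited signal equals the counts divided by a size factor per library, and it was used only for this check. The 5 summary lines of the count table stayed out, and they held 33.4% to 33.9% of reads as not uniquely aligned and 9.47% to 9.96% as outside genes in the 6 libraries.

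Genes with at least 10 counts in total were fitted over all 11 libraries as 4 genotypes with edgeR 4.0.16 (R 4.3.3, TMM, robust quasi-likelihood test), and DKO was set against control. A call required a Benjamini-Hochberg adjusted p under 0.05 with a log2 fold change of 0.6 or more in size. DESeq2 1.42.0 with a local fit was an alternative, as were other size factors and filters, a fit of the 6 libraries alone, a replicate block, Xist and granule cell covariates and each replicate left out. Leaving out control 1 with DKO 2, the caudal Hox and the sensory ganglion covariates, and the sensory ganglion list were chosen after seeing the data. The comparison and the gene lists were chosen with earlier results of these data known. Named genes were the targeted genes, those the study names, those called, tissue markers, those with the smallest p or largest fold change without overlap, up to 3 members of each list with the smallest p and its highest member, and up to 5 near each floxed gene. Others were chosen after their values were seen. Separation was tested on variance-stabilized counts of the 500 most variable genes with an exact permutation test. Gene positions came from GENCODE vM39 and promoters from RefSeq GRCm38.p6, by symbol, for 18191 genes directly and 2219 by an older symbol.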

Additional observations from a re-analysis of the deposited data

How the results depend on the processing

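Of the 4 called genes, Ank3, Thy1 and Cadps kept their calls in all 19 alternatives, and Uts2 in 16 of 19. Ecel1, not called in the main fit, was called in 5 of 19, DESeq2 among them. The number of called genes was 44 with DESeq2, 4 to 8 with each replicate left out, of which 8 without DKO 2, 9 without control 1 and DKO 2 together, and 7 with the sensory ganglion covariate, and the cause was not tested. The replicate block left it at 4, the same 4 genes, and lost Rapgef4 among the genes with an adjusted p under 0.05 (edgeR adjusted p = 0.0651), and same-numbered libraries did not deviate together (correlations of -0.10, 0.29 and -0.03), so the numbers were not taken to pair them. The call of Uts2 was lost with only the 6 libraries, with the replicate block in those 6 libraries (DKO against control, edgeR adjusted p = 0.637) and without control 3. Within 5 Mb of the floxed genes, 7 genes had an unadjusted p under 0.05, with 108 genes tested near Nfasc and 25 near Ank3. Within 10 Mb there were 29 (127 and 160 tested) and within 20 Mb 45 (179 and 374 tested). The share over all genes was 7.77%. The separation of the groups gave exact permutation p-values of 0.3 to 0.7 over its alternatives, none of which could pass 0.05. None of the 54 named genes that were recomputed under the alternatives changed direction. List medians did change sign in places, among them complement (0.25 to -0.01), neuropeptides (0.12 to -0.01) and cytosolic ribosomal proteins (0.08 to -0.01) without control 1 and DKO 2, and interferon response (0.08 to -0.01) and potassium channels (-0.06 to 0.05) without DKO 2. The medians of the initial segment scaffold, kinesin and dynein, lipid handling, myelin, GPI-anchored and oxidative phosphorylation lists, all within 0.05 of 0, changed sign under several alternatives. Genes under 1 CPM rest on few reads.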
